A study of Mus musculus with 12 samples.

Results

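Selenoprotein mRNAs carry an in-frame UGA codon that ribosomes read as selenocysteine, the selenium-containing amino acid, instead of as a stop. The 10 examined here were Gpx1, Gpx4, Txnrd1, Txnrd2, Selenof, Selenok, Selenos, Selenot, Selenow and Sephs2, chosen by gene symbol from the 55376 genes of the count table. All 10 were among the 12224 genes that passed the filter on low counts and were tested. They were measured in RNA from the 4T1 line of mouse mammary gland cancer, carrying either the empty vector (mock) or full-length Mettl7a1 cDNA in pBICEP-CMV-2, under a CMV promoter (METTL7A1), as stable transfectants kept in G418. Whether either line was a single clone is not given in the sources used here. Both lines received cycloheximide at 0.1 mg/ml during 5 min before lysis, which holds ribosomes on mRNA, and cytoplasmic extracts were separated on sucrose gradients. The sub-polysomal pool joined fractions 3 to 7, with free ribosomal subunits and monosomes. The polysomal pool joined fractions 8 to 11, with light and heavy polysomes. There were 3 replicates of each line in each pool, with the letters A, B and C for mock and D, E and F for METTL7A1 cells. The comparisons ask how each mRNA divides between the pools, how its level in either pool differs between the lines, and whether the division itself differs.

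Reading UGA as selenocysteine needs a hairpin in the 3′ untranslated region of the mRNA (the SECIS element), the SECIS-binding protein Secisbp2, the elongation factor Eefsec and a dedicated tRNA charged with selenocysteine. Where this recoding fails, the ribosome stops at the UGA, and a stop well upstream of the last exon junction is a known trigger of nonsense-mediated decay, the pathway that degrades mRNAs with premature stop codons. Gpx1 and Gpx4 encode glutathione peroxidases, Txnrd1 and Txnrd2 thioredoxin reductases, and Selenof, Selenok, Selenos and Selenot proteins of the endoplasmic reticulum. Selenow encodes a small protein with a thioredoxin-like fold, and Sephs2 the synthetase that makes selenophosphate, the selenium donor for selenocysteine itself.

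The 10 mRNAs differ in where the UGA lies, which is why its surroundings are shown here. Each run below is 27 bases of the GENCODE transcript (GRCm38), read 5′ to 3′ on the coding strand, with the selenocysteine UGA in capitals as TGA.
Gpx1: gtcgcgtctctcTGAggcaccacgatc
Gpx4: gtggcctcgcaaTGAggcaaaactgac
Selenof: gaagtctgcggaTGAaaattggggagg
Selenot: atttgtgtatccTGAgggtaccggcgg
Selenow: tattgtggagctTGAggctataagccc
Sephs2: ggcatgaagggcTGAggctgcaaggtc
Selenok: atggctggtggaTGAggaaggtaaatg
Selenos: tcatctggcggcTGAaactaagactct
Txnrd1: cagtctggctgcTGAggttaagcccca
Txnrd2: gtgactggttgcTGAggctaagtcacc
In the last 4, the UGA was within the last 3 codons of the coding sequence, so that its stop codon (taa) stands in the printed window. In the other 6 it lay further inside. The base after the UGA was g in 8 of the 10 and a in Selenof and Selenos. In 6 members (Gpx1, Gpx4, Selenof, Selenot, Selenow and Txnrd2) the UGA stood 50 or more bases before the last exon junction, in Selenok 5 bases before it, and in Selenos, Txnrd1 and the single-exon Sephs2 in the last exon. GENCODE annotates selenocysteine in 24 mouse genes, and the 14 others are taken up below.

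Libraries held 1817520 to 6966156 counts, with the lowest total in mock sub-polysomal A. A floor of 3 counts corresponds to 0.431 to 1.65 CPM (the count relative to library size), below every value of the 10 mRNAs. Mettl7a1 had 4 to 24 counts in mock and 989 to 2436 in METTL7A1 libraries. All 6 epithelial markers listed for 4T1 cells were tested, with a summed level of 2667 CPM or more in each library. Of 10 markers of leukocytes, endothelium, fibroblasts and adipocytes 2 (Cd68 and Pdgfra) passed the filter and 3 (Adgre1, Col1a2 and Pdgfrb) were at 0 counts in all 12 libraries. The sum of those 10 was 10.3 to 11.5 CPM in mock polysomal and at least 17.8 CPM in METTL7A1 polysomal libraries, and 9.46 to 13.5 CPM and 12.9 to 20.5 CPM in the sub-polysomal ones. Mock polysomal A stood apart from B and C. Its mitochondrial transcripts made up 0.684% of counts against 2.14% and 1.43%, and the 10 selenoprotein mRNAs 0.167% against 0.273% and 0.233%. Results that change without replicate A are given both ways.

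Together the 10 mRNAs took a larger share of the sub-polysomal than of the polysomal counts in both lines. Most of their mock sub-polysomal counts came from Gpx1 (23.7% to 37.2% of them) and Selenof (31.2% to 40.8%), so the sum mainly follows these genes. Their share was 0.467% ± 0.0395 (SD, n = 3) of mock sub-polysomal and 0.224% ± 0.0538 of mock polysomal counts. In METTL7A1 cells it was 0.518% ± 0.0164 and 0.232% ± 0.0170. The values are shares of the RNA in each pool, so neither the amount of RNA in a pool nor, in bulk RNA, fewer cells against less RNA per cell can be told apart from them.

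Per kilobase of annotated exons, Gpx1 and Selenof mRNA led in every group. In mock sub-polysomal RNA the mean levels were 1499 CPM per kb for Gpx1 and 1197 for Selenof, followed by Selenow at 476 and Gpx4 at 428. The remaining 6 lay between 114 CPM per kb (Selenot) and 20.4 (Txnrd1). Gpx1 overlapped Selenof, Selenow overlapped Gpx4, and Txnrd2 overlapped Txnrd1 over the 3 libraries, while all other neighbours in this order were apart. In mock polysomal RNA Selenof (482 CPM per kb), Gpx1 (255), Gpx4 (119.8) and Selenot (85.1) came first, each overlapping the next of these 4. Selenot stood apart from Selenow (43.9) below it and Selenos (32.0) from Txnrd2 (18.4), while the other neighbours overlapped. In METTL7A1 sub-polysomal RNA Gpx4, at 933 CPM per kb, stood apart from Selenof (1402) above and Selenow (461) below. Selenow, the fourth there, was the ninth of 10 in METTL7A1 polysomal RNA, at 28.3 CPM per kb.

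**Figure D1:**
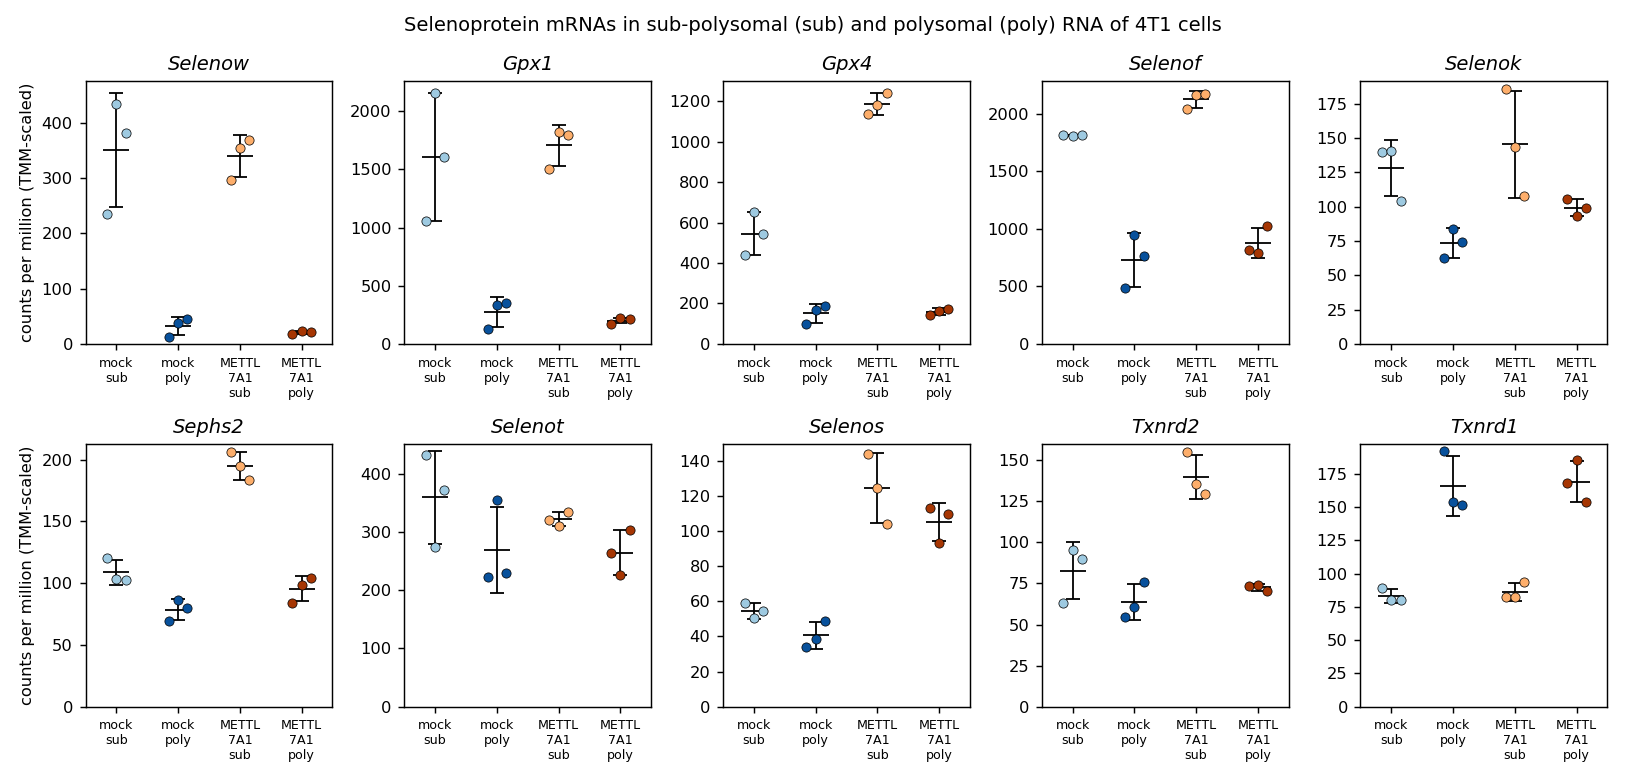
Level of each selenoprotein mRNA in TMM-scaled CPM (linear axes from 0, scaled per gene) in the 4 groups; points are the replicates in letter order, and the bars mark the mean and SD of 3. Selenow, Gpx1, Gpx4 and Selenof were lower in every polysomal than in every sub-polysomal library of the same line, Txnrd1 was higher, and Gpx4, Txnrd2, Sephs2 and Selenos were higher in METTL7A1 than in mock sub-polysomal RNA.

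The first comparison is the division between the pools. In mock cells 8 of the 10 mRNAs were lower in polysomal RNA at an adjusted p below 0.05, where 23.7% of all tested genes were lower. Txnrd1 alone was higher, as were 23.3% of all genes, and Selenot did not pass. By a stricter rule (adjusted p below 0.01 with an absolute log2 change above 1.5), 3 of the 10 were lower (Gpx1, Gpx4 and Selenow) against 6.86% of all genes, and 0 were higher against 0.687%. The 3 libraries of one pool lay wholly above or below those of the other for 8 of the 10, against 51.9% of all genes. The median log2 change was -0.63 over the 10 and 0.05 over all genes. In METTL7A1 cells 7 were lower (29.3% of all genes) and Txnrd1 again higher (30.0%). The same 3 passed the stricter rule as lower (10.3% of all genes) and 0 as higher (1.76%), 9 had pools without overlap (66.8%), and the median was -0.99 against 0.06. All p-values are from edgeR's quasi-likelihood test with Benjamini-Hochberg adjustment over the 12224 genes. The study describes its fractionations as done on biological replicates, while the labels do not say whether these libraries came from separate cultures, so the tests measure the spread between these libraries, part of which may be technical.

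The glutathione peroxidase mRNAs were among the most strongly divided. Gpx1, on chr9:108338903-108340343 of GRCm38 (plus strand), encodes the cytosolic enzyme that reduces hydrogen peroxide, with its UGA as codon 47, at chr9:108339451-108339453. Its level was 1054, 2157 and 1611 CPM in mock sub-polysomal A, B and C and 129, 338 and 355 CPM in the polysomal libraries. In METTL7A1 cells it was 1502, 1824 and 1797 CPM in sub-polysomal D, E and F and 172, 219 and 211 CPM in polysomal RNA. The lowest sub-polysomal library was thus above the highest polysomal one in both lines. Polysomal Gpx1 was 5.87-fold lower in mock cells (log2 change -2.55, standard error 0.30, adjusted p = 3.66e-06) and 8.51-fold lower in METTL7A1 cells (-3.09, 0.31, 2.46e-07). Gpx4, on chr10:80047166-80056439 (plus strand, UGA as codon 73 of 197 at chr10:80054737-80054739), encodes the peroxidase that reduces lipid hydroperoxides in membranes and guards against ferroptosis. It stood at 439, 652 and 543 CPM in mock sub-polysomal and at 98.6, 169.7 and 189 CPM in mock polysomal RNA. In METTL7A1 cells the sub-polysomal values were 1135, 1183 and 1242 CPM and the polysomal values 142, 164 and 174 CPM. The polysomal values of both lines covered a similar range, while the sub-polysomal values of the lines did not overlap. The log2 change between pools was -1.84 (standard error 0.21, adjusted p = 2.1e-06) in mock and -2.89 (0.21, 2.5e-08) in METTL7A1 cells.

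Selenow mRNA, whose gene is on chr7:15917208-15922402 (minus strand), showed the largest difference of the 10. Its UGA is codon 13 of 88, at chr7:15920464-15920466, and its stop codon is also a UGA. Sub-polysomal levels were 235, 434 and 382 CPM in mock and 296, 354 and 369 CPM in METTL7A1 cells. Polysomal levels were 13.4, 38.4 and 45.1 CPM in mock and 17.5, 24.0 and 21.0 CPM in METTL7A1 cells. Every polysomal library was thus far below every sub-polysomal one. Selenow was 10.9-fold lower in polysomal RNA of mock cells (log2 change -3.44, standard error 0.31, adjusted p = 3.59e-07) and 16.3-fold lower in METTL7A1 cells (-4.02, 0.32, 4.16e-08).

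The thioredoxin reductase mRNAs, both with the UGA as the codon before the last, lay on opposite sides. Txnrd1 (chr10:82833951-82897712, plus strand, UGA at chr10:82896037-82896039) encodes the cytosolic enzyme that keeps thioredoxin reduced. It stood at 89.0, 79.8 and 80.4 CPM in mock sub-polysomal and 192, 153 and 152 CPM in mock polysomal RNA. In METTL7A1 cells the values were 82.1, 82.5 and 93.9 CPM and 168, 186 and 154 CPM. The polysomal libraries were higher without overlap in both lines, by a log2 change of 1.00 (standard error 0.14, adjusted p = 1.61e-05) and 0.97 (0.14, 9.13e-06). Txnrd2 (chr16:18426384-18479073, plus strand, UGA at chr16:18477772-18477774) encodes the mitochondrial enzyme. Its levels were 63.1, 95.5 and 89.9 CPM in mock sub-polysomal and 54.6, 60.8 and 75.6 CPM in mock polysomal RNA, so that the pools overlapped. In METTL7A1 cells they did not, at 155, 135 and 129 CPM against 73.6, 73.9 and 70.3 CPM. The log2 change was -0.40 (standard error 0.16, adjusted p = 0.0486) in mock and -0.94 (0.16, 4.98e-05) in METTL7A1 cells. The mock call was lost under 4 of the 8 other settings (Actb scaling, no filter, limma-voom and the compared groups alone, with adjusted p between 0.0503 and 0.122) and without any 1 of replicates B to F. Without mock replicate B it was -0.26 (adjusted p = 0.321).

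Among the mRNAs for proteins of the endoplasmic reticulum, Selenof and Selenok were lower in polysomal RNA of both lines. Selenof (chr3:144570304-144597680, plus strand, UGA as codon 93 of 162 at chr3:144590645-144590647) encodes a partner of the glycoprotein glucosyltransferase that checks folding. Its mock sub-polysomal values were nearly equal, at 1814, 1805 and 1815 CPM, while the polysomal ones were 483, 942 and 763 CPM. In METTL7A1 cells they were 2037, 2160.5 and 2171 CPM against 815, 792 and 1024 CPM. The log2 change was -1.31 (standard error 0.20, adjusted p = 4.15e-05) in mock and -1.28 (0.20, 2.91e-05) in METTL7A1 cells. Selenok (chr14:29968308-29975662, plus strand, UGA as codon 92 of 94 at chr14:29973440-29973442) encodes a membrane protein that, like Selenos, takes part in the degradation of misfolded proteins. Its levels were 139.7, 141 and 105 CPM against 62.3, 83.9 and 74.0 CPM in mock cells. In METTL7A1 cells they were 185, 143 and 107 CPM against 106, 93.3 and 98.9 CPM, where the lowest sub-polysomal value was just above the highest polysomal one. The log2 change was -0.80 (standard error 0.18, adjusted p = 0.00137) in mock and -0.55 (0.18, 0.0125) in METTL7A1 cells. Without METTL7A1 replicate D or E the second of these missed the threshold, at -0.39 (adjusted p = 0.122) and -0.51 (0.0943).

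Selenos and Selenot mRNA changed less between the pools than Selenof and Selenok in both lines, and of their values only that of Selenos in mock cells passed. Selenos (chr7:66079649-66089405, plus strand, UGA as codon 189 of 190 at chr7:66088844-66088846) stood at 59.1, 50.3 and 54.4 CPM in mock sub-polysomal and 34.1, 38.7 and 49.1 CPM in mock polysomal RNA. In METTL7A1 cells the values were 144, 125 and 104 CPM and 113, 93.0 and 109.9 CPM. The mock pools did not overlap and the METTL7A1 pools did. The log2 change was -0.42 (standard error 0.16, adjusted p = 0.0434) in mock and -0.24 (0.15, 0.189) in METTL7A1 cells. The mock value missed the threshold under Actb scaling, without a filter, in the fit of the compared groups alone, and when replicate A, B or E was left out. Without mock replicate A it was -0.30 (adjusted p = 0.178). Selenot (chr3:58576636-58593133, plus strand, UGA as codon 49 of 195 at chr3:58585238-58585240) encodes a thioredoxin-like oxidoreductase. Its levels of 433, 275 and 371 CPM in mock sub-polysomal RNA overlapped the polysomal ones of 222, 354 and 229.7 CPM. In METTL7A1 cells they were 321, 311 and 335 CPM against 264, 227 and 304 CPM. The log2 change was -0.42 (95% interval -0.82 to -0.02, adjusted p = 0.0789) in mock and -0.28 (-0.68 to 0.12, 0.208) in METTL7A1 cells. Without mock replicate B, in which Selenot was higher in polysomal than in sub-polysomal RNA, the mock value was -0.83 (adjusted p = 0.00197).

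Sephs2, a selenoprotein that itself takes part in making selenocysteine, was lower in polysomal RNA of both lines. The gene lies on chr7:127271879-127274055 (minus strand), in 1 exon, with the UGA as codon 63 of 452 at chr7:127273731-127273733 and a UGA stop. Its levels were 121, 103 and 102 CPM against 69.2, 86.1 and 80.0 CPM in mock cells. In METTL7A1 cells they were 206, 195 and 183 CPM against 84.2, 98.4 and 104 CPM. The pools did not overlap in either line, and the distance between them was wider in METTL7A1 cells. The log2 change was -0.47 (standard error 0.14, adjusted p = 0.00923) in mock and -1.03 (0.13, 3.93e-06) in METTL7A1 cells. The mock call was lost without a filter, at -0.41 (adjusted p = 0.0504).

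**Figure D2:**
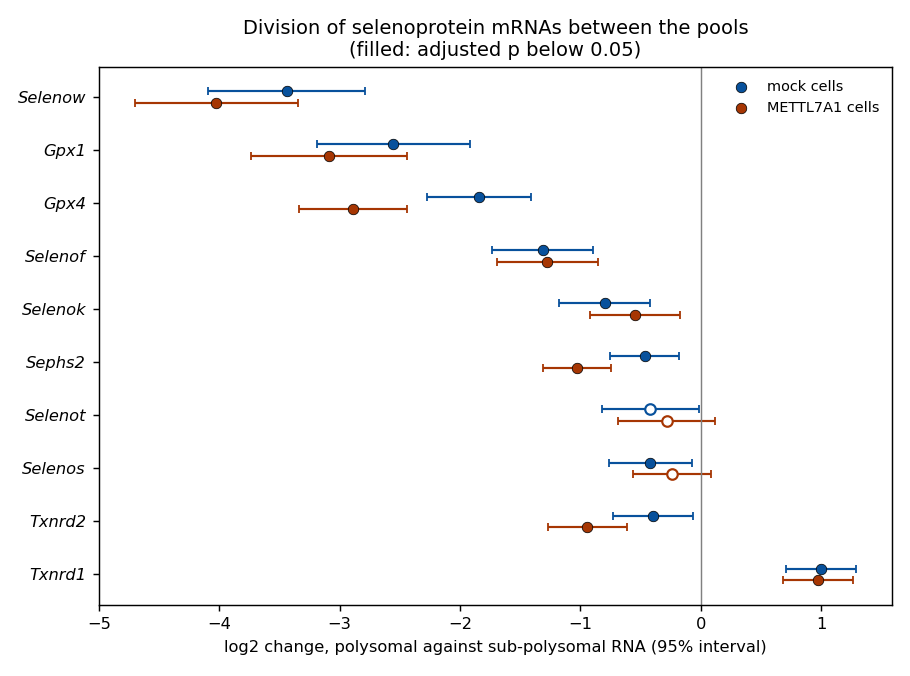
Log2 ratio of polysomal to sub-polysomal level of each selenoprotein mRNA, with 95% intervals, in mock (blue) and METTL7A1 (brown) cells; filled points have an adjusted p below 0.05. Values run from -3.44 (Selenow) to 1.00 (Txnrd1) in mock and from -4.02 to 0.97 in METTL7A1 cells.

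Short coding sequences were lower in polysomal RNA across the whole table, and 8 of the 10 mRNAs had fewer codons than the median of 458. A coding length was available for 10842 of the 12224 genes (88.7%). In mock cells the median log2 change of genes with up to 100 codons was -1.60 (quartiles -2.17 and -1.08, 228 genes). It was -0.74 (quartiles -1.23 and -0.25, 1226 genes) above that and up to 200 codons and -0.15 (quartiles -0.64 and 0.21, 1494 genes) from there up to 300 codons. Longer genes were even or higher, at 0.09 in the class up to 500 and 0.31 in the class up to 1000 codons. Set against genes of their own length class, 6 of the 10 (Gpx1, Gpx4, Selenof, Selenow, Sephs2 and Txnrd2) lay below the lower quartile in mock cells. Selenos and Selenot lay between the quartiles, and Selenok and Txnrd1 above the upper one. In METTL7A1 cells 5 lay below the lower quartile (the same without Selenof), Selenof between them, and Selenok, Selenos, Selenot and Txnrd1 above. Some of these places depend on the class edges. In the class up to 200 codons Selenok would lie between the quartiles in both lines (METTL7A1 quartiles -1.60 and -0.36). Selenos and Selenot in METTL7A1 cells would lie between those of the class up to 300 codons (-0.84 and 0.25). Gpx1, Gpx4, Selenow, Txnrd1 and Txnrd2, also near an edge, would keep their places in the adjoining class. Gpx4, Selenos and Selenot, with 190 to 197 codons, are of nearly equal length, yet in mock cells their log2 changes were -1.84, -0.42 and -0.42. Selenow and Selenok, with 88 and 94 codons, stood at -3.44 and -0.80. Among the 4 mRNAs with the UGA in the last 3 codons the changes ran from -0.80 to 1.00, and among the 6 with the UGA further inside from -3.44 to -0.42. These are descriptions of 10 genes, with no test of the place of the UGA. Among the other selenoprotein genes, given next, some with the UGA further inside had values above 0.

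**Figure D3:**
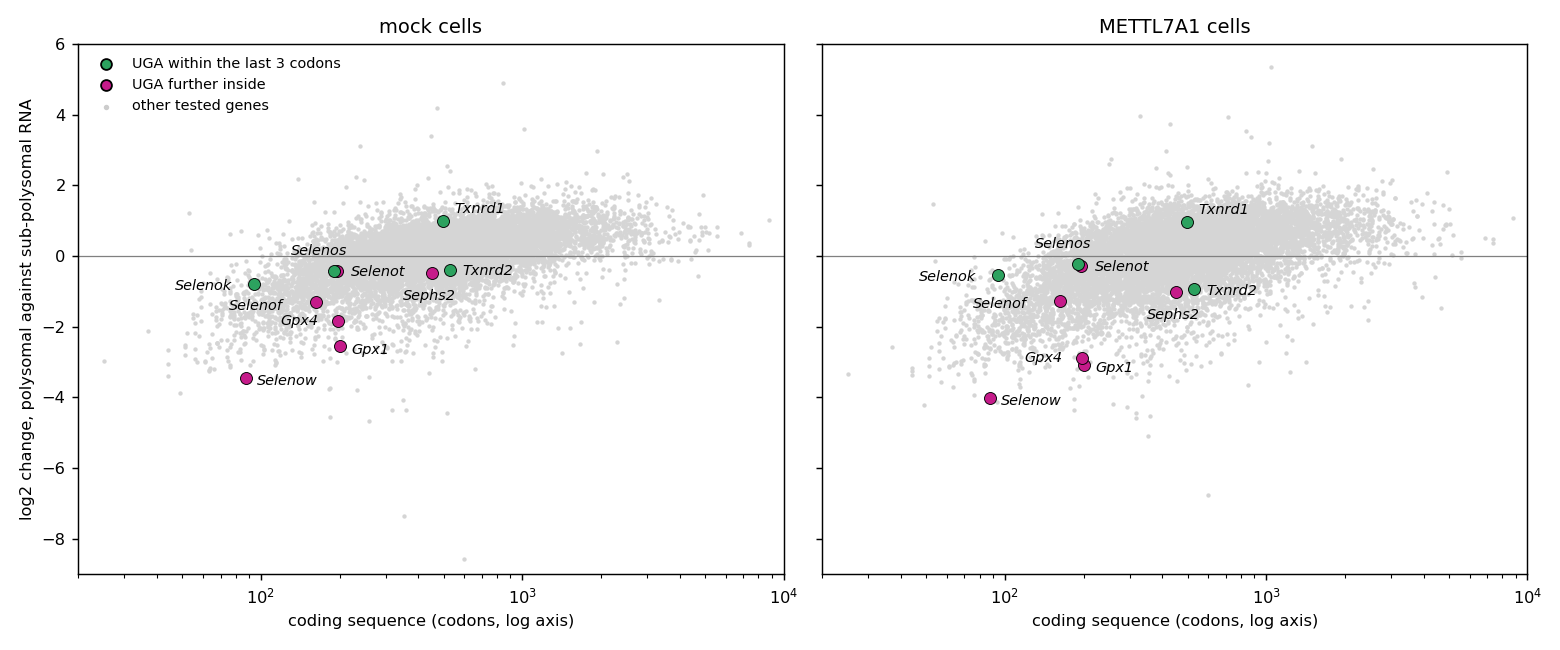
Coding length in codons (log axis) against the log2 ratio of polysomal to sub-polysomal level, in mock (left) and METTL7A1 cells (right); grey points are the tested genes with a coding length, green points members with the UGA in the last 3 codons and magenta points members with the UGA further inside. Selenow, Gpx1 and Gpx4 lie below most genes of like length, and Txnrd1 above.

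Of the 14 other genes with annotated selenocysteine, 7 were tested, and they too were found on both sides. In mock cells 3 were lower in polysomal RNA and 2 higher (23.7% and 23.3% of all genes), and in METTL7A1 cells 4 were lower and 2 higher (29.3% and 30.0%). Selenoh, which encodes a nuclear selenoprotein, had a log2 change of -2.68 (standard error 0.26, adjusted p = 4.88e-07) in mock and -3.16 (0.26, 4.5e-08) in METTL7A1 cells. Selenom, for a protein of the endoplasmic reticulum, followed at -1.41 and -2.17, and Msrb1, a methionine sulfoxide reductase, at -0.88 and -1.57. Selenoi, an ethanolamine phosphotransferase with its UGA in codon 388 of 398, was higher at 0.63 and 1.11, and the sparsely counted Txnrd3 (4 to 81 counts) at 1.90 and 1.11. Selenon, with its UGA in codon 428 of 557, was at 0.37 and 0.09 with adjusted p = 0.0578 and 0.635. Selenoo was at -0.40 (adjusted p = 0.122) in mock cells and lower, at -0.52 (0.0245), in METTL7A1 cells. Of these 7 genes, Selenoo and Txnrd3 had the UGA within the last 3 codons and the others further inside. With the UGA further inside, Selenoh, Selenom and Msrb1 were below 0 and Selenoi and Selenon above 0 in both lines, Selenon without passing. The first 3 have 116 to 145 codons, a class with a median of -0.74 in mock cells. Selenoi and Selenon, with 398 and 557 codons, belong to classes with medians of 0.09 and 0.31. The part of length in these values was not tested. Dio1, Dio2, Dio3, Gpx2, Gpx3, Selenop and Selenov did not pass the filter.

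Between the lines, 4 of the 10 mRNAs passed the test in the sub-polysomal and 1 in the polysomal pool. In sub-polysomal RNA Selenos, Gpx4, Sephs2 and Txnrd2 rose in METTL7A1 cells at an adjusted p below 0.05, against 16.8% of all genes, and 0 fell, against 14.5%. The stricter rule was passed by 0 of the 10 and by 2.76% of all genes either way. The lines did not overlap for 5 of the 10, against 43.9% of all genes, and the median log2 change was 0.21 against 0.00 over all genes. Selenos rose 2.28-fold, from 54.6 ± 4.43 to 124 ± 19.9 CPM (SD, n = 3; log2 change 1.19, standard error 0.16, edgeR adjusted p = 4.03e-05). Gpx4 rose 2.17-fold, from 545 ± 106 to 1187 ± 53.5 CPM (1.12, 0.20, edgeR adjusted p = 0.000441, n = 3). Sephs2 rose 1.80-fold, from 109 ± 10.2 to 195 ± 11.3 CPM (0.85, 0.14, edgeR adjusted p = 0.000185, n = 3), and Txnrd2 1.67-fold, from 82.8 ± 17.3 to 139.8 ± 13.5 CPM (0.74, 0.16, edgeR adjusted p = 0.0019, n = 3). Every METTL7A1 library was above every mock library for these 4, and also for Selenof, whose change of 0.23 (95% interval -0.19 to 0.64) did not pass. Gpx1 (0.09, interval -0.51 to 0.69), Txnrd1 (0.06, -0.24 to 0.36), Selenok (0.18, -0.19 to 0.56), Selenot (-0.16, -0.56 to 0.24) and Selenow (-0.05, -0.64 to 0.54) did not pass either.

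Mitochondrial transcripts made up 6.71% to 8.49% of mock and 4.37% to 7.67% of METTL7A1 sub-polysomal counts. Of the epithelial markers Krt8 rose (0.81, adjusted p = 0.000739) and Epcam fell (-0.71, adjusted p = 0.00708) in this pool, and of the markers of other cell types Cd68 rose (0.80, adjusted p = 0.0329), all 3 named after their values were seen. The part of these in the results was not tested. The 4 rises passed the threshold under each of the 7 other settings tried for this contrast and without each replicate. Scaling to the Actb count moved the median of all genes from 0.00 to 0.26 and the calls at an adjusted p below 0.05 from 2058 higher and 1776 lower to 3283 and 667, and the 4 values were then between 1.02 and 1.45. The processed pseudogene Gpx4-ps2 held at most 4.92% as many counts as Gpx4 in any library, and its own sub-polysomal change was 0.83 (adjusted p = 0.0424).

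In polysomal RNA Selenos was the member that rose in METTL7A1 cells, as did 9.69% of all genes, and 0 members fell, against 8.28%. The stricter rule was passed by 0 members and by 2.13% of all genes either way. The lines were apart for Selenos and Selenok, 2 of the 10, against 36.6% of all genes, and the median log2 change was 0.13 against -0.01 over all genes. Selenos rose 2.59-fold, from 40.6 ± 7.67 to 105 ± 10.8 CPM (SD, n = 3; log2 change 1.37, standard error 0.16, edgeR adjusted p = 7.11e-06), and remained past the threshold under each setting and without each replicate. Selenos was therefore higher in METTL7A1 cells in both pools. Selenok stood at 73.4 ± 10.8 and 99.3 ± 6.20 CPM, a change of 0.44 (95% interval 0.07 to 0.81, edgeR adjusted p = 0.0953), which passed only in the fit of the compared groups alone (0.43, adjusted p = 0.0487). Gpx4, which had risen in the sub-polysomal pool, was at 152 ± 47.5 and 160.3 ± 16.2 CPM in polysomal RNA (0.07, interval -0.35 to 0.50, edgeR adjusted p = 0.845).

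Gpx1 and Selenow were the 2 members whose polysomal result turned on mock replicate A. With all replicates the changes were -0.45 (adjusted p = 0.314) for Gpx1 and -0.63 (adjusted p = 0.168) for Selenow, and in both genes mock A was the lowest of the 6 polysomal libraries. Without mock replicate A both passed as lower in METTL7A1 cells, at -0.77 (adjusted p = 0.00269) and -0.99 (adjusted p = 0.00053). That replicate had been set apart partly by its low share of selenoprotein mRNAs, which include these genes. Leaving out the lowest mock value raises the mock mean by itself, so this fit cannot decide whether either mRNA fell. Selenow also passed without a filter, at -0.63 (adjusted p = 0.00757). The changes of Sephs2 (0.28), Selenof (0.27), Txnrd2 (0.19), Txnrd1 (0.03) and Selenot (-0.02) did not pass. The epithelial markers moved with the line in this pool. Their summed level was 3432 to 4122 CPM in mock and 5208 to 6104 CPM in METTL7A1 polysomal RNA, 5 of the 6 rose, as did Cd68 (named after its values were seen), 1 of the 2 tested markers of other cell types, and their part in the results above was not tested.

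**Figure D4:**
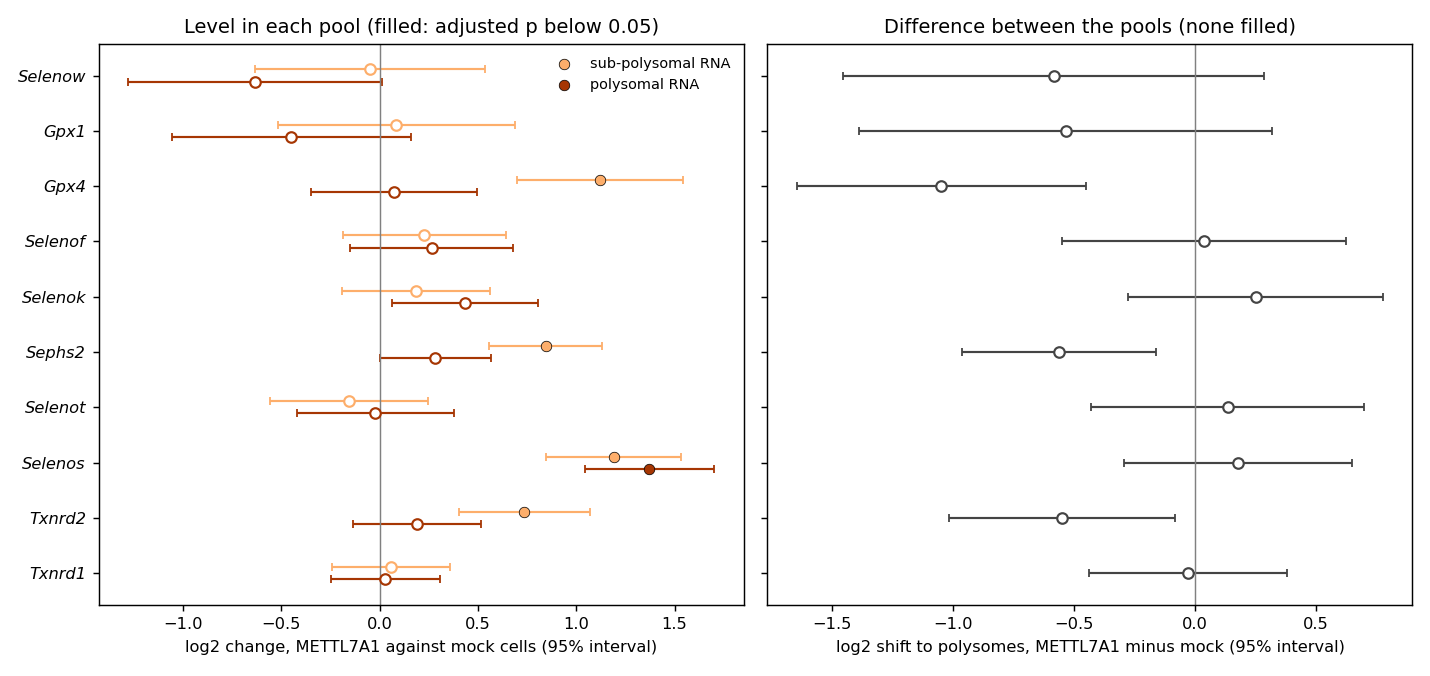
Left, log2 change of each selenoprotein mRNA in METTL7A1 against mock cells in sub-polysomal (orange) and polysomal (brown) RNA, with 95% intervals, filled at an adjusted p below 0.05; right, the shift to polysomes, the difference between the lines in the change from pool to pool. Selenos was filled in both pools, Gpx4, Sephs2 and Txnrd2 in the sub-polysomal pool, and the intervals of the shift left 0 outside for those last 3.

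The shift to polysomes tests whether the division between the pools differed between the lines. The adjusted threshold of 0.05 was passed by 0% of all genes, as was the stricter rule (0%), and 1911 genes (15.6%) had an unadjusted p below 0.05 with edgeR. At an adjusted p below 0.05 DESeq2 called 153 genes with a shift towards and 213 away from polysomes. Without a filter these counts were 57 and 102 of 22519 genes, and without mock replicate A 51 and 53. In the other 10 settings, limma-voom among them, they were 0. Among the 10 mRNAs 3 had an unadjusted p below 0.05 with edgeR, all with a shift away from polysomes in METTL7A1 cells. The shift was -1.05 for Gpx4 (95% interval -1.65 to -0.45, edgeR adjusted p = 0.129), -0.56 for Sephs2 (-0.96 to -0.16, 0.172) and -0.55 for Txnrd2 (-1.01 to -0.08, 0.246). The shift is the polysomal change between the lines minus the sub-polysomal one, so a sub-polysomal rise alone makes it negative. Gpx4, Sephs2 and Txnrd2 are 3 of the 4 mRNAs that rose in the sub-polysomal pool. The fourth, Selenos, had a shift of 0.18 (interval -0.29 to 0.65, adjusted p = 0.745). Gpx1 and Selenow had shifts of -0.53 and -0.58 with wide intervals (-1.39 to 0.32 and -1.45 to 0.29). Selenok (0.25), Selenot (0.14), Selenof (0.04) and Txnrd1 (-0.03) were nearer to 0. The median was -0.28 over the 10 and -0.01 over all genes.

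The Gpx4 shift passed under some settings. Its adjusted p was 0.0182 with DESeq2, which also called Sephs2 (0.0455), 0.00925 without a filter and 0.0428 without mock replicate A, the 3 settings with calls among all genes given above. Over the alternatives run for the shift it lay between 0.00925 and 0.464, and the estimate between -1.24 and -0.86. Scaling to Actb moved the median shift of all genes to -0.17.

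Of the 7 other selenoprotein genes 4 rose in sub-polysomal RNA of METTL7A1 cells and 0 fell, against 16.8% and 14.5% of all genes. Selenom rose from 47.9 ± 9.52 to 104 ± 19.5 CPM (SD, n = 3; log2 change 1.10, standard error 0.20, edgeR adjusted p = 0.000382) and Selenoh from 202 ± 33.7 to 326 ± 19.2 CPM (0.69, 0.24, edgeR adjusted p = 0.0329, n = 3). Msrb1 rose by 0.63 (adjusted p = 0.0213) and Txnrd3 also rose (adjusted p = 0.0165). In polysomal RNA 0 of the 7 passed, against 9.69% of all genes that rose and 8.28% that fell. Of the 7, 1 (Txnrd3, 0.71, adjusted p = 0.0561) was at an unadjusted p below 0.05. The shift was called for 0 of the 7, and 3 had an unadjusted p below 0.05, against 15.6% of all genes. These were Selenom at -0.76 and Msrb1 at -0.69 away from polysomes and Selenoi at 0.48 towards them. This list was made up with the results for the 10 known.

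All 15 listed genes of the selenocysteine machinery were tested. In the sub-polysomal pool of METTL7A1 cells 1 rose and 4 fell, against 16.8% and 14.5% of all genes. The 1 that rose was Trnau1ap, which associates with the selenocysteine tRNA (0.71, adjusted p = 0.00189). The 4 that fell were Ncl, the nucleolar protein nucleolin, which binds some SECIS elements (-0.86, adjusted p = 0.00132), Sepsecs, which converts the tRNA-bound intermediate to selenocysteine (-0.79, 0.0363), Secisbp2 (-0.56, 0.0336) and Sars, the seryl-tRNA synthetase that first charges the tRNA (-0.51, 0.00973). In polysomal RNA 0 of 15 passed with edgeR, against 9.69% of all genes that rose and 8.28% that fell. Of the 15, 1 (Eefsec, -0.35, adjusted p = 0.112) had an unadjusted p below 0.05. Between pools, 4 were higher and 4 lower in polysomal RNA of mock cells (23.3% and 23.7% of all genes), and 9 and 4 in METTL7A1 cells (30.0% and 29.3%). The median log2 change of the 15 was 0.19 in mock and 0.43 in METTL7A1 cells, against 0.05 and 0.06 over all genes. Ncl stood at 0.64 and 1.57, the highest of the 15 in METTL7A1 cells. Pstk, the kinase that makes the intermediate for Sepsecs, was lower at -1.35 and -1.49, and Trnau1ap at -0.76 and -1.29. Of the shift 0 of 15 were called, and the largest was that of Ncl (0.93, adjusted p = 0.129).

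Related genes without selenocysteine were counted beside them. Of the 4 tested cysteine-containing relatives (of 5 listed), 0 rose and 0 fell between the lines in either pool with edgeR, with 1 at an unadjusted p below 0.05 in polysomal and 0 in sub-polysomal RNA. Between pools, Gpx8 (-0.69) and Msrb2 (-0.65) were lower in polysomal RNA of mock cells and 0 were higher (23.7% and 23.3% of all genes). In METTL7A1 cells these 2 were lower and Msrb3 higher (0.67), against 29.3% and 30.0% of all genes. Of 28 tested genes of the glutathione and thioredoxin systems, 5 rose and 2 fell in sub-polysomal RNA of METTL7A1 cells, against 16.8% and 14.5% of all genes. Among these 7 the 2 largest rises and the 2 falls were those of the glutathione transferase Gsta4 (1.19, adjusted p = 0.0127), mitochondrial thioredoxin Txn2 (0.72, 0.00524), the glutamate-cysteine ligase subunit Gclm (-0.49, 0.0204) and thioredoxin Txn1 (-0.49, 0.0366). In polysomal RNA 1 of the 28 rose, Gsta4 (1.18, adjusted p = 0.00214), and 1 fell, the cystine transporter Slc7a11 (-1.52, 0.00606). The shares of all genes there were 9.69% and 8.28%. Slc7a11 was at -1.46 in sub-polysomal RNA, beyond all of the 7 in size, with an adjusted p of 0.0508. Between pools, 8 of the 28 were higher and 6 lower in polysomal RNA of mock cells (23.3% and 23.7% of all genes). In METTL7A1 cells 6 were higher and 7 lower (30.0% and 29.3% of all genes). Acsl4 (1.01 and 1.34) and Gss (0.91 and 0.91) were highest and Glrx5 (-1.28 and -1.53) and Txn2 (-1.10 and -1.56) lowest.

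Partners and pathways of the 10 were also listed, and their counts are to be read against 16.8% of all genes that rose and 14.5% that fell in sub-polysomal RNA and 9.69% and 8.28% in polysomal RNA. Between pools the shares of all genes were 23.3% higher and 23.7% lower in mock and 30.0% and 29.3% in METTL7A1 cells. Of 12 tested partners of Selenos and Selenok in degradation at the endoplasmic reticulum, 2 rose in polysomal and 3 in sub-polysomal RNA of METTL7A1 cells, and 0 and 3 fell. Between pools 5 were higher and 3 lower in mock and 6 and 2 in METTL7A1 cells. Of the 10 nonsense-mediated decay factors, 2 rose and 3 fell in sub-polysomal and 0 passed in polysomal RNA (1 at an unadjusted p below 0.05), and between pools 1 was higher and 0 lower in mock and 5 and 2 in METTL7A1 cells. Of 6 transcripts listed as sensitive to this decay, 4 were lower in polysomal RNA in each line, 2 rose in sub-polysomal RNA and 1 in polysomal RNA of METTL7A1 cells. The shift was called with edgeR for 0 genes of each list. An unadjusted p below 0.05 for the shift was seen in 3 of the 12 partners, 3 of the 10 decay factors and 1 of the 6 sensitive transcripts. In the lists before, it was seen in 4 of 15 machinery genes, 0 of 4 cysteine relatives and 1 of 28 glutathione and thioredoxin genes. The share of all genes was 15.6%.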

How the data were processed

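RNA-Seq of 12 libraries of polysomal and sub-polysomal RNA from 4T1 cells was analysed. For its libraries of total RNA, the paper describes stranded, rRNA-depleted preparation and trimming with BBDuk. Reads were then aligned to mm10 with STAR 2.5.3a and assigned by featureCounts to Ensembl genes (GRCm38). The paper gives no separate preparation or trimming for the libraries of the pools, whose records also name STAR 2.5.3a and featureCounts. The deposited values are counts per gene, whole numbers without normalization. The strand setting and the handling of reads that match several genes are not given in the sources used here, and 1 check of shared reads is not reported here. All other columns of the table describe the genes.

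The 12224 genes (of 55376) that reached 1 CPM in 3 or more libraries were fitted with edgeR 4.0.16 (R 4.3.3) in 1 fit of the 12 libraries, with TMM factors and 1 mean per group, and tested with the quasi-likelihood test. Printed CPM values use the TMM factors. CPM per kb divide by the deposited exon length. Call rules were an adjusted p below 0.05, and a stricter rule of 0.01 with an absolute log2 change above 1.5. Alternatives were RLE factors, scaling to Actb, no filter beyond a count, at least 10 counts in every library, limma-voom (limma 3.58.1), DESeq2 1.42.0, the replicate letter as a block, the compared groups alone and leaving out each replicate. The pools of a letter may be cuts of the same gradient, which the labels do not state. Deviations of the pools of 1 letter correlated with r between -0.292 and 0.107, which does not settle whether they are pairs. The main fit did not take the letters as pairs, and the fit with the replicate block is given below.

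Named were the 10 mRNAs, the tested genes of the lists of other selenoproteins and of the machinery, and at most the 2 largest rises and 2 largest falls per comparison of the cysteine relatives and of the glutathione and thioredoxin genes. The mRNAs and lists were chosen with earlier results of these data known. Transcript sequence, UGA positions, coding lengths and overlaps came from GENCODE vM21 on GRCm38. The coding length of a gene is that of a chosen annotated transcript, which need not be its longest. Figures were drawn with matplotlib 3.10.9.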

Additional observations from a re-analysis of the deposited data

How the results depend on the processing

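Of 670 values of the 10 mRNAs recomputed under 14 settings, 621 kept their direction and their side of the threshold, 18 lost the threshold, 9 passed it newly and 22 changed sign, each of these in the comparisons of the lines or the shift. Genes past the stricter rule numbered 923 and 1480 between pools in mock and METTL7A1 cells, 260 and 337 between lines in polysomal and sub-polysomal RNA, and 0 for the shift. They were 509, 861, 55 and 92 with at least 10 counts in every library, which tests 8855 genes, and 5746, 7248, 2197 and 3834 by the adjusted p of 0.05 alone. For the shift they were 10 without a filter and 1 with DESeq2. Without a filter 5 members in place of 8 were lower in mock polysomal RNA, 1 fell between lines in polysomal RNA and 1 was lower for the shift, as were 2 with DESeq2, and 2 members rose in polysomal RNA with the compared groups alone. Selenot in polysomal RNA turned to 0.080 with Actb scaling and 0.0022 with limma-voom. In sub-polysomal RNA Actb scaling turned Selenot to 0.074 and Selenow to 0.23, and for the shift Selenof to -0.12. Higher and lower calls at an adjusted p below 0.05 with Actb scaling were 2137 and 4230 between the pools of METTL7A1 cells (3670 and 3578 with TMM factors) and 1234 and 495 between lines in polysomal RNA (1185 and 1012). Leaving out 1 replicate at a time, members that fell in polysomal RNA numbered 0 to 2 and those lower for the shift 0 to 1. In polysomal RNA Gpx4 ranged from -0.15 to 0.26, Txnrd1 from -0.042 to 0.16 and Selenot from -0.13 to 0.23. In sub-polysomal RNA Gpx1 ranged from -0.16 to 0.36, Selenow from -0.28 to 0.13, Selenok from -0.026 to 0.36 and Txnrd1 from -0.0089 to 0.091. For the shift Txnrd1 ranged from -0.13 to 0.10, Selenof from -0.15 to 0.27 and Selenot from -0.10 to 0.55. The causes were not tested. With the replicate block 816 and 1383 genes were called between pools and 0 for the shift, and no call of the 10 mRNAs changed, with the Gpx4 shift at -1.02 (adjusted p = 0.0969). The lines share 0 letters, so a block could not be fitted between them.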
